A study of Homo sapiens with 6 samples.

Results

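A set of 9 genes used as markers of the intestinal and gastric lineage were examined in OVCAR5, an established human cell line that the study uses as an ovarian cancer model and that the labels call an epithelial cancer line. The members are CDX1, CDX2, HNF4A, GATA6, VIL1, CDH17, LGALS4, GPA33 and TFF3. They were chosen by name, and all 9 were found among the 60649 gene rows of the count table by their identifier without its version. The cells were transduced with lentivirus carrying METTL3, the methyltransferase that places N6-methyladenosine (m6A) on RNA, or with empty-vector lentivirus, and stable lines were selected with puromycin. Whether these lines were single clones is not given in the sources used here. Each group had 3 libraries of poly(A)-enriched RNA. One part of the labels calls the controls parental cells and another gives them the empty vector. The labels name no further drug for these libraries and do not say whether the replicates came from separate cultures, so p-values measure the spread between these libraries, which may be technical.

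The lining of the stomach and gut is set up by transcription factors that act on each other and on shared targets. CDX1 and CDX2 are caudal-type homeobox factors that specify and keep intestinal identity. HNF4A is a nuclear receptor of gut, liver, pancreas and kidney, and GATA6 is a zinc finger factor of endoderm that works in stomach, intestine and pancreas. The other 5 members are products of the differentiated epithelium. VIL1 (villin) bundles actin in microvilli, CDH17 (liver-intestine cadherin) joins neighbouring cells, LGALS4 (galectin-4) binds glycans at the apical membrane, GPA33 (the A33 antigen) is a surface protein of intestinal epithelium, and TFF3 is a trefoil peptide secreted by goblet cells.

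Total counts ranged from 96633925 to 125463386 per library. Small counts were mostly even (67.6% to 70.5% of those from 1 to 20 in each library), which can arise where each read pair adds 2, so low counts may be less precise than they look. On the first principal component of log2 CPM, which held 40.5% of the variance, replicate 1 of both groups lay on the opposite side from the other 4 libraries. Differences are therefore also given for replicates 2 and 3 of each group. METTL3 itself checked the labels, at 152.4 to 175.3 CPM (counts scaled to library totals adjusted by TMM) with overexpression and 68.6 to 80.6 CPM with the vector.

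The levels in the vector control libraries were compared between genes as TPM, in which each count is divided by the length of the gene's exons and the library is scaled to a common sum. Of the transcription factors, 3 of 4 and, of the differentiation products, 1 of 5 reached 1 TPM on average, so 4 of the 9 members did. Of 19942 protein-coding genes, 63.05% reached that level in the same libraries. The median over the 9 members was 0.899 TPM, against 6.87 TPM over all protein-coding genes. The transcription factors GATA6, CDX2 and HNF4A were thus measured at clear levels, whereas most products of the differentiated epithelium were near or under 1 TPM.

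**Figure D1:**
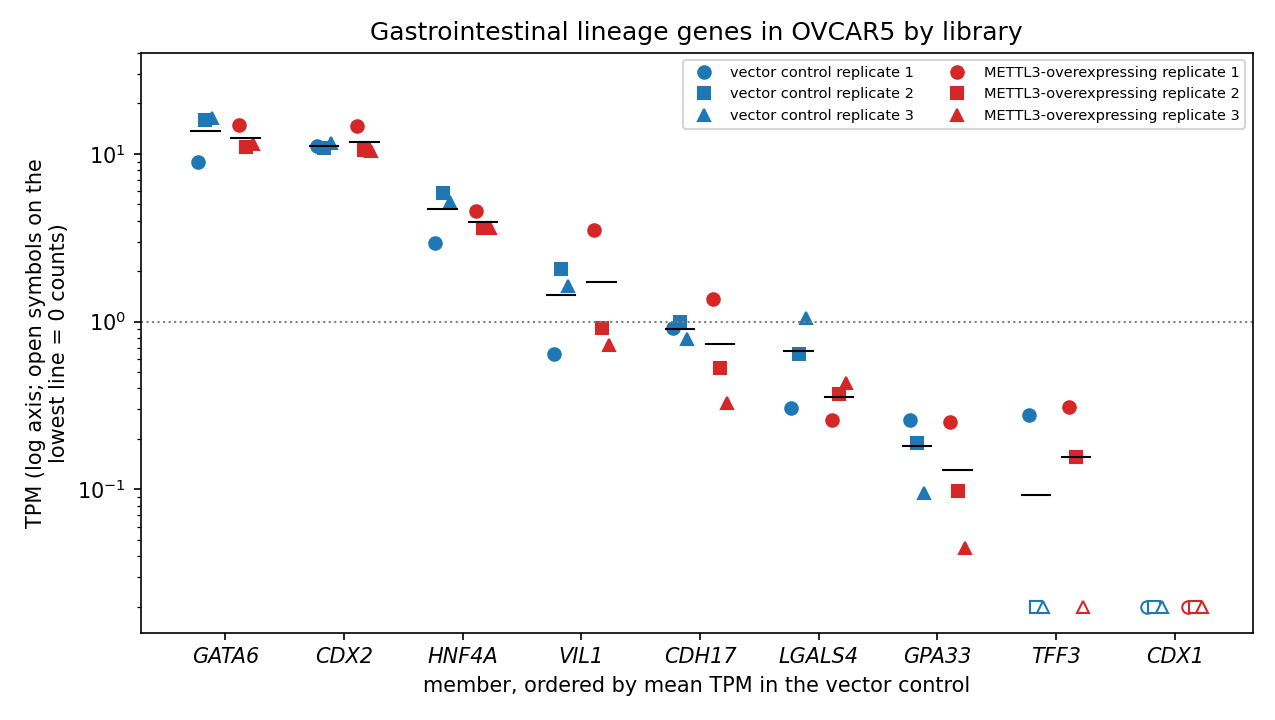
TPM of each member in the 3 vector control (blue) and 3 METTL3-overexpressing (red) libraries on a log axis, with symbols for the replicate number, bars for group means and a dotted line at 1 TPM. Open symbols on the lowest line are libraries with 0 counts. GATA6, CDX2 and HNF4A lie above 1 TPM in every library, and CDX1 has 0 counts in every library.

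GATA6 (ENSG00000141448.11, chromosome 18, 22169589 to 22202528, GRCh38) had the highest level among the members. It was at 8.95, 16.0 and 16.3 TPM in vector control replicates 1, 2 and 3, a mean of 13.8 ± 4.17 TPM (SD, n = 3). Replicate 1 was the low library. Of the protein-coding genes, 8324 had a higher mean level. Its antisense neighbours GATA6-AS1 and ENSG00000266283 cover 2.47% and 8.45% of its exon bases, and held at most 70 and 12 counts in any library, against at least 800 counts for GATA6.

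CDX2 (ENSG00000165556.10, chromosome 13, 27960918 to 27969315) was the most even member between libraries. Its TPM were 11.1, 10.8 and 11.7 in vector control replicates 1, 2 and 3, with a mean of 11.2 ± 0.442 (SD, n = 3). The raw counts behind these values were 918, 956 and 1027. GATA6 exceeded CDX2 in 2 of the 3 vector control libraries and their ranges overlapped, so the order of these neighbours was within the spread. The mean TPM of CDX2 was 2.40 times that of HNF4A, the next member, and those ranges did not overlap.

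HNF4A (ENSG00000101076.18, chromosome 20, 44355699 to 44432845) was at 2.96, 5.87 and 5.18 TPM in vector control replicates 1, 2 and 3, a mean of 4.67 ± 1.52 TPM (SD, n = 3). As for GATA6, replicate 1 was the low library. The gene has an upstream and a downstream promoter whose transcripts are summed in 1 row, so the counts do not say which was used. Divided by its longest transcript rather than by all its exons, its mean was 6.96 TPM, and the order of GATA6, CDX2 and HNF4A was the same.

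CDX1 (ENSG00000113722.17, chromosome 5, 150166778 to 150184558), the paralog of CDX2, had 0 counts in all 6 libraries. The limit that a count of 0 allows, taken as 3 counts in a library, lies between 0.0607 and 0.0739 TPM. This limit covers counting error only. The paralogs therefore stood at opposite ends, with CDX2 at no less than 10.4 TPM in any library and CDX1 not detected.

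RefSeq promoter windows, from 250 bases before to 50 bases after the start (GRCh38.p14), were found for GATA6, CDX2, HNF4A, LGALS4 and GPA33, and not for CDX1, CDH17, VIL1 and TFF3. The windows of the 3 expressed factors are shown because these genes have the highest levels among the members, with both HNF4A starts, and GPA33 is shown as a product at a low level. Capitals mark AGATAA, a form of the GATA site, on either strand.
CDX2 (chr13:27969266-27969565, reverse strand): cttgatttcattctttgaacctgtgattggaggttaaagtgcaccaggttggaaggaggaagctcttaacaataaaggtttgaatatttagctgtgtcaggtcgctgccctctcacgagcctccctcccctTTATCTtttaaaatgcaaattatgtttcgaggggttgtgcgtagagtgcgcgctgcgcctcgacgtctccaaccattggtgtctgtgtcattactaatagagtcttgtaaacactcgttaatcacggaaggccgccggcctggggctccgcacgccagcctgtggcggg
HNF4A, upstream start (chr20:44355449-44355748, forward strand): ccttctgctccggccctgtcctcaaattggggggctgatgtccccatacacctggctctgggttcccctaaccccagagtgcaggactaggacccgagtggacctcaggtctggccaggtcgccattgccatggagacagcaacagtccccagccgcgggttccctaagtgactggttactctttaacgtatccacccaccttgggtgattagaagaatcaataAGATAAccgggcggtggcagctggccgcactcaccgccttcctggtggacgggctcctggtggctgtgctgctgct
HNF4A, downstream start (chr20:44400989-44401288, forward strand): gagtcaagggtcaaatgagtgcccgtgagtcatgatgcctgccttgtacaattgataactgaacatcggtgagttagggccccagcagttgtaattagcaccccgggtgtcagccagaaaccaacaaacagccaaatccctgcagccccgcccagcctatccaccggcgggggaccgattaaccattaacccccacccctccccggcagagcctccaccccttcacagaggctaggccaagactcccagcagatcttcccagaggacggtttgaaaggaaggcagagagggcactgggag
GATA6 (chr18:22169339-22169638, forward strand): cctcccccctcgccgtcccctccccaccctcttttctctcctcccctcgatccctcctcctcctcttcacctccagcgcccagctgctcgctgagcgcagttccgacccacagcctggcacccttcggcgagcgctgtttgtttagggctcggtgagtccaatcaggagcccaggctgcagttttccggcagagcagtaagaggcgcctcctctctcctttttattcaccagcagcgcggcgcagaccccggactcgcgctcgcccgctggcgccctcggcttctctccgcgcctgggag
GPA33 (chr1:167090328-167090627, reverse strand): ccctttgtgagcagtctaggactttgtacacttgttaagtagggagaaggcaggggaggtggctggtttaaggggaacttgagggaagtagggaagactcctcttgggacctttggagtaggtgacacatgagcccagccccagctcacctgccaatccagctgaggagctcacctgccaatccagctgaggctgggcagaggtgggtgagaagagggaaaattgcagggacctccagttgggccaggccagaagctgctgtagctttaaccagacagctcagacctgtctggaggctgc

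AGATAA was found once in the CDX2 window, on the reverse strand from 119 bases before the start, and once in the upstream HNF4A window, on the forward strand from 26 bases before the start. The same letters are in 10.3% of all 35116 windows. Other forms of the GATA site were not searched for, so a window without a mark may still hold one. CATAAA, a form of the CDX site, was in none of the members' windows and in 10.6% of all windows. CAAAGNNCA, a form of the HNF4 site, was in none of them and in 5.28% of all windows. The TATA box TATAAA, which differs from CATAAA in the first letter only, was also in none of them and in 11.5% of all windows. GATA6 had 25 CpG dinucleotides in its window, CDX2 had 16, and the HNF4A windows had 11 and 9. LGALS4 had 7 and GPA33 had 0, where the median of all windows was 14.

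Among the differentiation products, VIL1 (ENSG00000127831.11, chromosome 2, 218419121 to 218453295) had the highest level and a wide spread. It was at 0.642, 2.07 and 1.64 TPM in vector control replicates 1, 2 and 3, a mean of 1.45 ± 0.732 TPM (SD, n = 3). Its exons overlap those of USP37, a gene for a deubiquitinase on the opposite strand, over 44.2% of the VIL1 exon bases. Whether the counting used strand is not given in the sources used here, so reads in the shared part cannot be told apart. USP37 was at 21.2 to 23.8 CPM with the vector, and VIL1 at 1.10 to 3.18 CPM.

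CDH17 (ENSG00000079112.10, chromosome 8, 94127162 to 94217303) was at 0.921, 0.994 and 0.783 TPM in vector control replicates 1, 2 and 3, from 84, 97 and 76 counts. LGALS4 (ENSG00000171747.9, chromosome 19, 38801671 to 38812945) was at 0.306, 0.643 and 1.06 TPM, from 16, 36 and 59 counts. The ranges of VIL1 and CDH17 overlapped, as did those of CDH17 and LGALS4, so these 3 neighbours were not ordered beyond their spread. With the longest transcript as length, LGALS4 (0.769 TPM) stood above CDH17 (0.659 TPM).

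GPA33 (ENSG00000143167.12, chromosome 1, 167052836 to 167166479) had 18, 14 and 7 counts in vector control replicates 1, 2 and 3, a mean of 0.181 ± 0.0827 TPM (SD, n = 3). All 3 libraries were below those of LGALS4, by 3.69 times in the mean. TFF3 (ENSG00000160180.17, chromosome 21, 42311667 to 42315409) had 6, 0 and 0 counts, and its goblet cell product was thus at or near the detection limit. The ranges of GPA33 and TFF3 overlapped. At this depth TFF3 and CDX1 could not be ranked against each other in replicates 2 and 3, where both were at 0.

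Lists of other lineage genes placed these levels beside the wider intestinal program. Of 26 intestinal transcription factors, a list that includes CDX1, CDX2, HNF4A and GATA6, 18 reached 1 TPM in the vector control libraries, with a median of 12.1 TPM. The highest were EHF (270 TPM), KLF5 (149 TPM), SOX9 (125 TPM) and ELF3 (84.4 TPM), which are also used in other epithelia. GATA4 (38.2 ± 8.62 TPM, SD, n = 3) and HNF4G (13.1 ± 2.48 TPM, SD, n = 3), paralogs of members that were named after their values were seen, both had a higher mean than the member of their family. ISX, an intestinal homeobox factor, and ATOH1, the factor of secretory cells, were at 0.0319 and 0.0120 TPM.

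Of 42 enterocyte and brush border genes, which include VIL1, CDH17, LGALS4 and GPA33, 14 reached 1 TPM and 15 were under 0.1 TPM, with a median of 0.211 TPM. The list was uneven. CEACAM6 (722 TPM), the keratin KRT20 (408 TPM), MALL (132 TPM) and CEACAM5 (73.7 TPM) were high, and the CEACAM genes are similar enough that counting could have split their reads. The fatty acid binding proteins FABP1 and FABP2, the digestive phosphatase ALPI and the apolipoproteins APOB and APOA4 were between 0 and 0.0338 TPM. Of 16 goblet and secretory genes, which include TFF3, 6 reached 1 TPM, led by AGR2, a disulfide isomerase of mucus-producing cells, at 287 TPM. CLCA1, RETNLB and ITLN1 were at 0 counts in the 3 vector control libraries.

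The gastric list reached 1 TPM for 10 of 25 genes, with PSCA (241 TPM), TFF1 (30.2 TPM), MUC5AC (21.9 TPM) and TFF2 (12.2 TPM) highest. The trefoil family of TFF3 was thus uneven, as its gastric relatives TFF1 and TFF2 had means of 30.2 ± 22.7 and 12.2 ± 8.67 TPM (SD, n = 3 each), while TFF3 was at 0.0922 ± 0.160 TPM. The pepsinogens PGA3, PGA4 and PGA5, near-identical genes whose reads counting may have lost, were at 0.0102 TPM or less. In the list for intestinal stem cells and Wnt, 12 of 16 genes reached 1 TPM, led by CD44 (481 TPM) and EPHB2 (36.8 TPM), but LGR5, the marker of crypt stem cells, was at 0.0356 TPM. Of 18 enteroendocrine genes, 3 reached 1 TPM.

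Lists for other tissues were set beside them. In the Mullerian and ovarian list 14 of 24 genes reached 1 TPM, with WFDC2 (420 TPM), CALB2 (143 TPM), CRABP2 (140 TPM) and BCAM (75.7 TPM) highest. PAX8, the factor of Mullerian epithelium, named after its value was seen, was at 4.14 ± 0.774 TPM (SD, n = 3), which is below CDX2 in mean. WT1, SOX17, ESR1 and PGR, defining markers of the same list named because they were under 0.1 TPM, were at 0.0497, 0.00604, 0.0148 and 0.0111 TPM. Other markers of that list were higher, such as MSLN (28.4 TPM) and FOLR1 (18.7 TPM), also named after their values were seen. Of its 24 genes, 10 reached 5 TPM and 5 were under 0.1 TPM. Of the hepatocyte list, which shares HNF4A as a regulator, 4 of 16 genes reached 1 TPM, namely the protease inhibitor SERPINA1 (72.6 TPM), the fibrinogen chain FGB (3.56 TPM), CPS1 (2.91 TPM) and ASGR1 (1.196 TPM). ALB, AFP and TTR of that list were at 0.0232, 0 and 0 TPM. In the pancreatic and biliary list 7 of 16 did, led by the keratins KRT19 (1155 TPM) and KRT7 (534 TPM), and the acinar genes PRSS1, PNLIP and CPA1 were under 0.1 TPM. The list for other epithelia and stroma reached 1 TPM for 7 of 23, led by VIM (367 TPM), and the leukocyte marker PTPRC was at 0.0139 TPM. The share of genes at 1 TPM or more was 58.33% in the Mullerian and ovarian list, 44.44% in the members and 63.05% over all protein-coding genes.

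**Figure D2:**
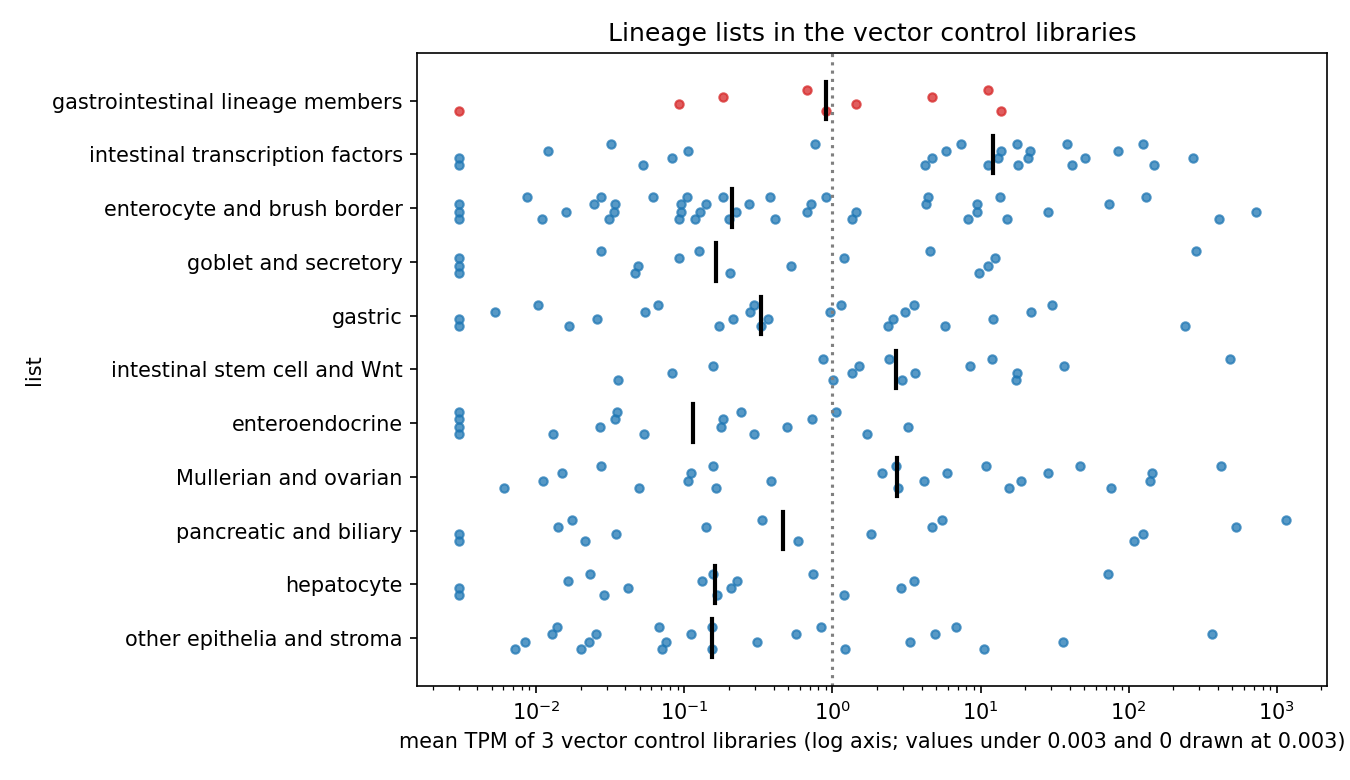
Mean TPM of the 3 vector control libraries on a log axis for each gene of the 9 members (red) and of 10 lineage lists (blue). Black bars are medians and the dotted line is 1 TPM. The members have a median of 0.899 TPM, between the intestinal transcription factors (12.1 TPM) and the enterocyte and brush border genes (0.211 TPM).

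The change with METTL3 was then tested with edgeR's quasi-likelihood test on all 6 libraries, with Benjamini-Hochberg adjustment over the 22038 genes that passed a filter on low counts. Of the 9 members, 7 passed that filter, and CDX1 and TFF3, with fewer than 10 counts in every library, did not. None of the 7 had an adjusted p-value under 0.05 in edgeR, where 0% of all genes tested did. Before adjustment, 0 members and 8.3% of all genes had a p-value under 0.05. DESeq2 also called 0 members, against 1.28% of all genes, and gave no adjusted p-value for LGALS4 and GPA33. In TMM-scaled CPM the groups overlapped for every member tested, whereas they did not overlap for 17.4% of all genes. METTL3 had a log2 fold change of 1.16 (SE 0.117, adjusted p = 0.072 in edgeR's test).

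The CPM of GATA6 in replicates 1, 2 and 3 were 12.2, 9.33 and 9.88 with METTL3, and 8.43, 13.6 and 14.03 with the vector. HNF4A was at 10.1, 8.21 and 8.36 CPM with METTL3 and at 7.46, 13.3 and 11.9 CPM with the vector. Both genes were lowest in vector control replicate 1, and the other 2 vector control libraries lay above all 3 METTL3-overexpressing ones. The log2 fold change was -0.20 for GATA6 (SE 0.215, 95% interval -0.69 to 0.29, adjusted p = 0.792 in edgeR's test). For HNF4A it was -0.29 (SE 0.222, 95% interval -0.80 to 0.21, adjusted p = 0.707 in the same edgeR test). With 1 library left out, both values stayed below 0 and moved widely. GATA6 was at -0.40 without vector control replicate 1, -0.08 without replicate 2 and -0.05 without replicate 3, and at -0.31 and -0.11 without METTL3-overexpressing replicates 1 and 2. HNF4A was at -0.51 without vector control replicate 1 and at -0.10 without replicate 2. The lowest adjusted p-values among these were 0.218 for GATA6 and 0.126 for HNF4A in edgeR's test, both without vector control replicate 1. In replicates 2 and 3 of each group the log2 fold changes were -0.53 for GATA6 and -0.61 for HNF4A, and both fell there (adjusted p = 0.000513 and 0.000273 in edgeR's test). The paper lists GATA6 among its top overlapping genes, as lower with METTL3 overexpression and higher after METTL3 knockdown. Knockdown libraries are not among those examined here.

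CDX2 differed little in any comparison. It was at 11.1, 8.36 and 8.27 CPM with METTL3 and at 9.68, 8.46 and 9.30 CPM with the vector, with METTL3-overexpressing replicate 1 the highest library. Its log2 fold change was 0.02 (SE 0.164, 95% interval -0.36 to 0.39, adjusted p = 0.986 in edgeR's test). In replicates 2 and 3 of each group it was -0.10 (adjusted p = 0.572 in edgeR's test).

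VIL1 had the widest range of the better-measured members. It was at 5.23, 1.41 and 1.14 CPM with METTL3 and at 1.10, 3.18 and 2.55 CPM with the vector. Replicate 1 was the highest METTL3-overexpressing library and the lowest vector control library. The log2 fold change was 0.19 (SE 0.600, 95% interval -1.19 to 1.56, adjusted p = 0.942 in edgeR's test). The replicate 1 libraries alone differed by 2.24 on the log2 scale, and replicates 2 and 3 by -1.16 each. When only replicates 2 and 3 of each group were fitted, VIL1 fell by 1.16 (adjusted p = 0.000503 in edgeR's test). Leaving out METTL3-overexpressing replicate 1 alone gave -0.82, and leaving out vector control replicate 1 alone gave -0.14. With the replicate number as a block, the value turned to -0.11 (adjusted p = 0.96 in edgeR's test). USP37, which shares exon bases with VIL1, was at 27.6, 27.6 and 25.7 CPM with METTL3 and 23.8, 23.1 and 21.2 CPM with the vector. Its log2 fold change was 0.25 (adjusted p = 0.61 in edgeR's test). Whether reads from the shared bases add to the spread of VIL1 was not tested.

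CDH17 was at 1.14, 0.460 and 0.287 CPM with METTL3 and at 0.886, 0.858 and 0.688 CPM with the vector. Again replicate 1 was the highest METTL3-overexpressing library. Its log2 fold change was -0.36 (SE 0.463, 95% interval -1.42 to 0.70, adjusted p = 0.83 in edgeR's test), and in replicates 2 and 3 of each group it was -1.03 (adjusted p = 0.0363 in edgeR's test, and 0.0699 in DESeq2). With the replicate block it was -0.55 (adjusted p = 0.569 in edgeR's test). With 1 library left out it lay between -1.08, without METTL3-overexpressing replicate 1, and 0.00, without METTL3-overexpressing replicate 3. LGALS4 was at 0.124, 0.186 and 0.218 CPM with METTL3 and at 0.169, 0.319 and 0.534 CPM with the vector. Its log2 fold change of -0.96 was the largest in size among the members over all 6 libraries (SE 0.475, 95% interval -2.04 to 0.13, adjusted p = 0.626 in edgeR's test). With 1 library left out, LGALS4 lay between -1.27, without vector control replicate 1, and -0.46, without vector control replicate 3, its highest library. Without vector control replicate 3, GPA33 was larger in size. GPA33, CDH17 and VIL1 were each larger in size without METTL3-overexpressing replicate 1, where LGALS4 was at -0.75. LGALS4 was also the member with the same sign within all 3 replicate numbers and more than 10 counts in every library. In replicates 2 and 3 of each group its value was -1.08 (adjusted p = 0.0958 in edgeR's test), and VIL1 was larger in size there, at -1.16.

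GPA33 had 18, 8 and 3 counts with METTL3 and 18, 14 and 7 with the vector, so its log2 fold change of -0.54 (SE 0.673, adjusted p = 0.823 in edgeR's test) rests on few reads. With 1 library left out it ranged from -1.33, without METTL3-overexpressing replicate 1, to -0.14, without vector control replicate 1. It did not pass the filter in replicates 2 and 3. TFF3 had 7, 4 and 0 counts with METTL3 against 6, 0 and 0 with the vector, and did not pass the filter. When no filter was applied, its log2 fold change was 0.66 (SE 1.44, adjusted p = 0.926 in edgeR's test). CDX1 remained at 0 with METTL3.

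Libraries of the same number were also compared, although the labels do not give them as pairs. The 7 tested members were lower with METTL3 in both the replicate 2 and the replicate 3 pair, as were 35.5% of all genes tested. CDX2 differed by only -0.02 and -0.17 on the log2 scale. For GPA33 this depended on the numbering. Its METTL3-overexpressing replicate 2 (0.065 CPM) was slightly above vector control replicate 3 (0.063 CPM). TFF3, not tested, had more counts with METTL3 in the replicate 2 pair. GATA6, CDX2, HNF4A, VIL1 and CDH17 were at the same time higher with METTL3 in the replicate 1 pair, where 15.5% of all genes tested had this pattern. When replicates 2 and 3 of each group were fitted alone, a choice made with earlier results known, GATA6, HNF4A, VIL1 and CDH17 fell, which is 4 of the 6 members tested there. In that fit 8.59% of all genes were called lower and 6.66% higher. DESeq2 called 3 of them, all but CDH17, and 14.6% of all genes. These calls rest on the spread between 2 libraries a group.

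**Figure D3:**
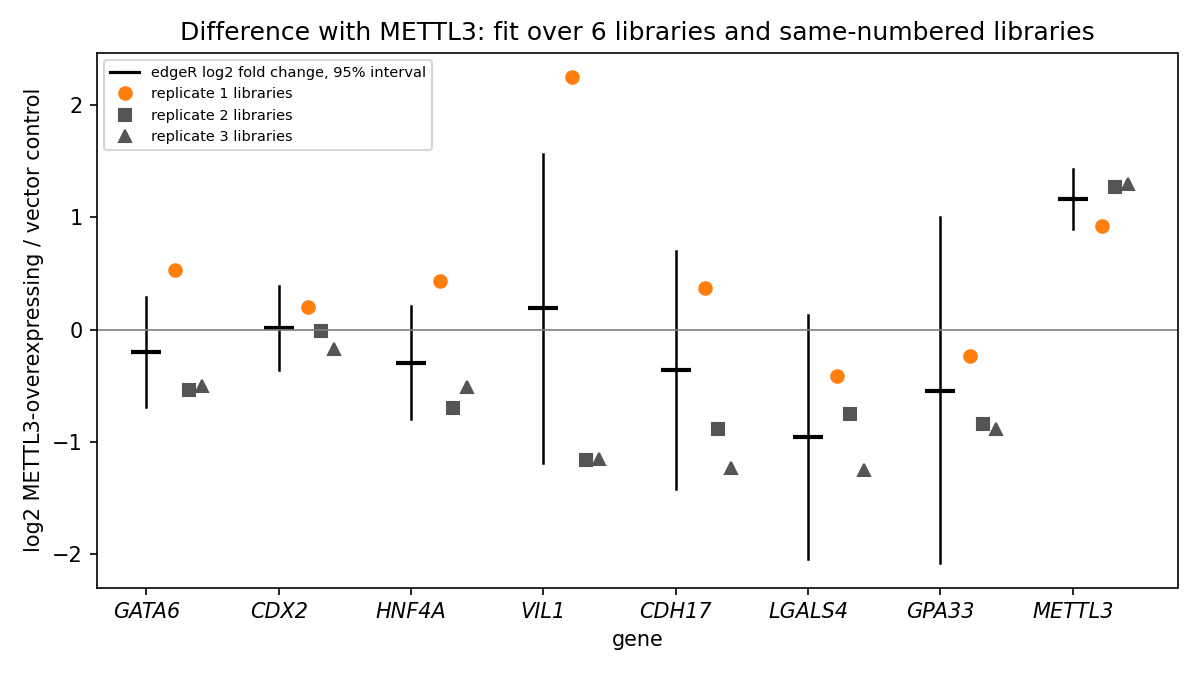
Log2 difference between METTL3-overexpressing and vector control cells for the 7 members tested and METTL3. Black bars are edgeR's log2 fold change over 6 libraries with its 95% interval, orange points the replicate 1 pair and grey points the replicate 2 and 3 pairs. The interval of each member crosses 0, and the replicate 1 point lies above the other points for every member.

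GATA6 and HNF4A had close to the same pattern over the 6 libraries. Likeness was measured as the root mean square difference of log2 CPM after each gene was centred on its mean, among 14683 other genes of at least 1 CPM. It was 0.079 between GATA6 and HNF4A, and 11 genes were closer to GATA6 and 17 closer to HNF4A. The CPM of HNF4A was between 0.829 and 0.980 times that of GATA6 in every library. The gene most like GATA6 was OSBP2 (0.057), and the gene most like HNF4A was PTP4A3 (0.040). CDX2 did not share the pattern, since GATA6, its nearest member, was at 0.295 and 9668 genes were closer. VIL1 was most like ADRA2A (0.221), and its nearest member GATA6 was at 0.627. These values describe 6 libraries that every gene shares.

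**Figure D4:**
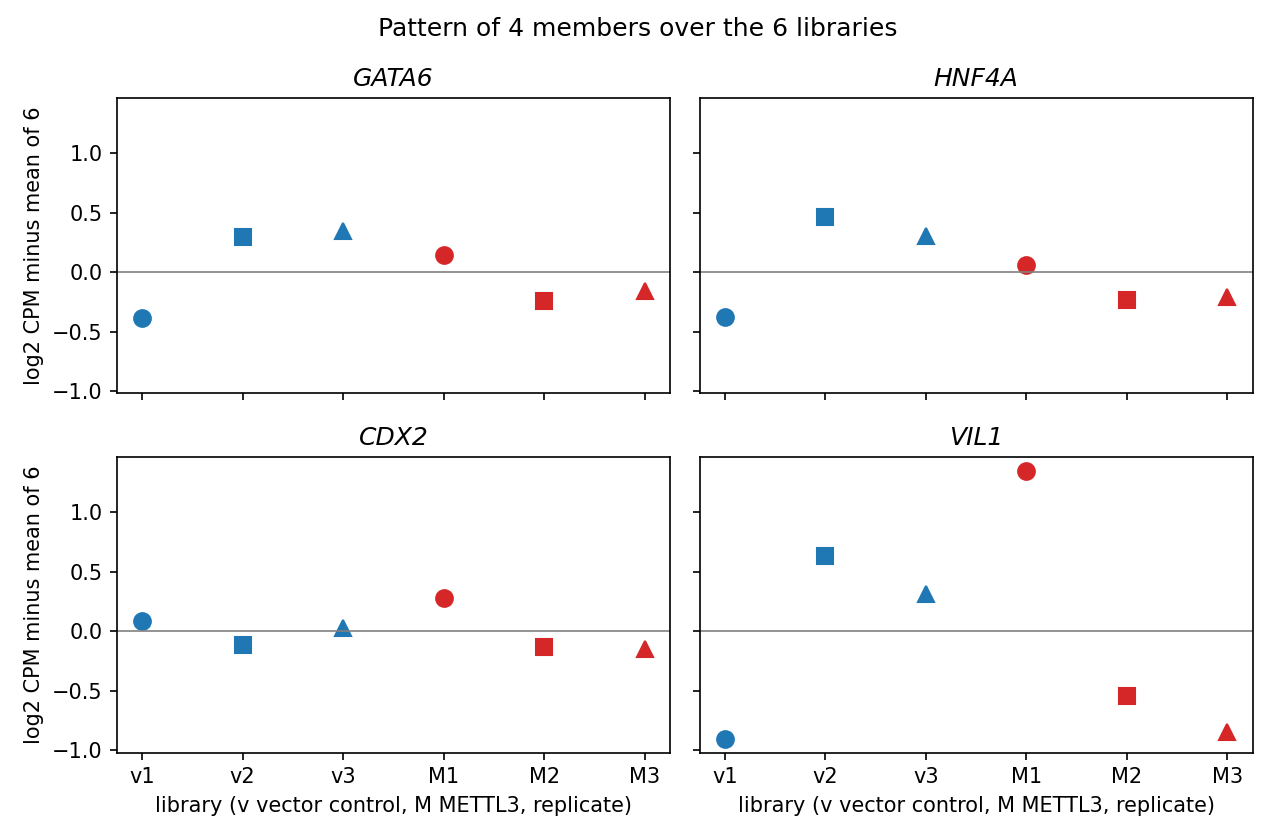
Log2 CPM of GATA6, HNF4A, CDX2 and VIL1 in each library minus the mean of the 6, for the vector control (blue, v) and METTL3-overexpressing (red, M) replicates. GATA6 and HNF4A move together within 0.079 (root mean square), CDX2 is nearly flat, and VIL1 is highest in METTL3-overexpressing replicate 1 and lowest in vector control replicate 1.

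The members' spread over libraries was set beside that of other genes. The range of log2 CPM over the 6 libraries was 0.424 for CDX2, under the median of 0.588 over 14684 genes of at least 1 CPM. It was 0.733 for GATA6 and 0.832 for HNF4A, and it was 2.24 for VIL1, wider than in 99.2% of those genes. In METTL3-overexpressing cells, VIL1 was 2.03 higher in replicate 1 than in the mean of replicates 2 and 3 on the log2 scale, and in vector control cells that difference was -1.36. CDH17 was higher in replicate 1 by 1.60 and 0.20, and LGALS4 was at -0.62 and -1.21, so the members did not shift one way in replicate 1. In bulk libraries, fewer cells that express a gene and less RNA per cell cannot be told apart.

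The longest transcript of each member was searched in the sense direction for GGACT, a common form of the sequence at which METTL3 methylates. CDX2 held 10 matches in 3448 bases, or 2.90 per kilobase, which is more than in 98.1% of protein-coding genes, whose median was 0.924. GATA6 held 5 (1.38 per kilobase), CDH17 5 (1.36), HNF4A 3 (0.633) and VIL1 6 (0.923). LGALS4 held 0 in 1345 bases. A match is not a methylated site, and m6A was not measured in these libraries.

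Of the listed lineage genes other than the members, none was called by edgeR on all 6 libraries. The 20 intestinal transcription factors tested had a median log2 fold change of 0.04, the 26 enterocyte and brush border genes -0.13, and the 14 intestinal stem cell and Wnt genes 0.09. For the 7 members it was -0.29 (GATA6, CDX2, HNF4A, VIL1, CDH17, LGALS4 and GPA33), where all genes tested that have a name had -0.02. Before adjustment, a p-value under 0.05 was found for 6 intestinal transcription factors that were higher and 1 that was lower, and for 1 enterocyte gene in each direction, where 8.3% of all genes tested had one. In replicates 2 and 3 of each group, 6 of the 20 transcription factors tested rose and 7 fell, the latter including GATA6 and HNF4A. Of 25 enterocyte genes tested there, 1 rose and 7 fell, the latter including VIL1 and CDH17, and over all genes 6.66% rose and 8.59% fell.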

How the data were processed

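RNA from 3 METTL3-overexpressing and 3 vector control OVCAR5 libraries was sequenced. The authors used hisat2 to align reads to hg38 and Subread to count them, and deposited raw counts per gene without normalization. The submitters' processing notes also name fastp and featureCounts. Versions, annotation release and strand setting are not given in the sources used here, and the paper and the labels differ on kit and read layout. All 6 columns were mapped to samples by title. Identifiers were matched without version to GENCODE release 44 (60463 of 60649 rows), and reads per union of exons gave TPM. Promoters came from RefSeq.

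Genes kept by filterByExpr were scaled by TMM and compared by edgeR's quasi-likelihood test (glmQLFit with robust = TRUE, then glmQLFTest; edgeR 4.0.16, R 4.3.3). P-values were adjusted by Benjamini-Hochberg at 0.05. SE is |log2 fold change| / sqrt(F), and intervals use the fit's t quantile. DESeq2 1.42.0, which the authors used, was run as an alternative. The functions were tested on simulated counts with 200 changed genes among 21569 in the METTL3 comparison. There edgeR recovered 72% of changes of 2-fold and 97.5% of changes of 4-fold. Unchanged genes made up 8.86% and 7.14% of its calls. DESeq2 recovered 87% and 99%, and unchanged genes made up 25.6% and 21.7% of its calls. The changed genes were drawn from those above 1 CPM, and no shift of replicate 1 was simulated. These shares may therefore not hold for the real libraries or for members under 1 CPM. Depth was 96633925 to 125463386 counts per library.

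Deviations from the group means correlated between libraries of the same number at 0.33, 0.12 and 0.17. As all 3 exceed 0.1, a block on the replicate number was fitted as an alternative, and the main test was unpaired. The block comes from the values, not the labels. Unlike numbers reached 0.21 and 0.13, so the correlations do not settle whether the numbers are pairs. Alternatives were DESeq2, RLE and upper-quartile scaling, no filter, the replicate block and each library left out. Replicates 2 and 3 of each group and counts divided by 2 were added after seeing the data. The members, the 10 lists and the tests were chosen with earlier results of these data known. Named genes are the members, METTL3, genes whose exons overlap a member's, the most similar gene of each member at 1 TPM or more, and from each list up to 4 genes of highest TPM, defining markers under 0.1 TPM, and any gene called. PAX8, MSLN, FOLR1, GATA4, HNF4G, SPDEF and MUC2 are outside that rule.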

Additional observations from a re-analysis of the deposited data

How the results depend on the processing

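All-gene calls in edgeR rose from 0 of 22038 genes to 560 of 43096 without the filter on low counts. In replicates 2 and 3 of each group they were 3362 of 22046. DESeq2 called 283 genes (1.28%) on all libraries and 3218 (14.6%) in those replicates. Leaving out 1 library gave 0 to 367 calls in edgeR, the latter without vector control replicate 1. The members called were 0 under each alternative other than replicates 2 and 3 of each group, with 4 of the 6 tested there in edgeR and 3 in DESeq2. The 10 lists hold 222 entries, which include the members and some genes listed more than once. Of their genes other than the members, 17 were called without the filter and 5 with DESeq2. In replicates 2 and 3 of each group edgeR called 52 of them, where 6.66% of all genes were called higher and 8.59% lower. DESeq2 called 51 there, where 14.6% of all genes were called. Leaving out 1 library gave 0 to 4 of these listed genes. At a threshold of 5 TPM, 2 members passed in place of 4, and leaving out a vector control library kept the number at 4.

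Of 95 member log2 fold changes under alternatives, 80 kept direction and side of the threshold, 5 kept direction and passed it, and 10 reversed. CDX2 reversed to -0.10 (edgeR) and -0.09 (DESeq2) in replicates 2 and 3 of each group and ranged from -0.12 (without METTL3-overexpressing replicate 1) to 0.11 with 1 library left out. VIL1 reversed to -1.16 with both tools there and also passed the threshold with both. It reversed to -0.11 with the replicate block, and ranged from -0.82 to 0.55 with 1 library left out. CDH17 ranged from -1.08 to 0.00, the latter without METTL3-overexpressing replicate 3. The replicate block changed no member's call. The cause of these shifts was not tested. TFF3, with 7 counts or fewer in every library, could be tested only without the filter on low counts and was not called. GATA6, HNF4A, LGALS4 and GPA33 kept a negative sign with each library left out.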

Other observations

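Of 8 goblet and secretory genes tested, 7 were higher and 1 lower with METTL3, with a median log2 fold change of 0.67. Over the 21986 genes tested that have a name, 10384 were higher and the median was -0.02. The lean was not particular to this list, as 15 of 18 Mullerian and ovarian genes (median 0.30) and 9 of 10 pancreatic and biliary genes (median 0.22) were higher. In other lists more genes were lower, with 15 of 26 enterocyte and brush border, 8 of 15 gastric and 6 of 8 enteroendocrine genes. None of the goblet and secretory genes passed edgeR's quasi-likelihood test, and 3 had an unadjusted p-value under 0.05, as did 8.3% of all genes tested. One of the 3, FCGBP, a protein of mucus, rests on replicate 1, since its log2 ratios within replicates 1, 2 and 3 were 3.27, 0.32 and 0.07. In replicates 2 and 3 of each group the goblet and secretory list was mixed, with 3 of 7 genes called higher and 2 lower, against 6.66% and 8.59% of all genes. SPDEF, a transcription factor of goblet cells that stands in the list of intestinal transcription factors, and MUC2, the main mucin of intestinal mucus, were named after their values were seen. SPDEF was at 4.22 ± 0.203 TPM with the vector and 9.04 TPM with METTL3, a log2 fold change of 1.03 (SE 0.184, adjusted p = 0.303 in edgeR's test). MUC2 was at 0.528 ± 0.0313 and 1.23 TPM, a log2 fold change of 1.15 (SE 0.220, adjusted p = 0.34 in edgeR's test). The gastric mucin MUC5AC had 21.9 and 80.0 TPM, a log2 fold change of 1.80 (SE 0.352, adjusted p = 0.341 in edgeR's test). Its METTL3-overexpressing libraries were uneven, at 132.2, 63.7 and 43.9 TPM in replicates 1, 2 and 3. Its log2 ratios within those replicates were 2.755, 1.286 and 0.976, so the difference was largest in replicate 1. For these 3 genes the groups' CPM ranges were separate, as for 17.4% of all genes tested. DESeq2 on all 6 libraries called SPDEF, MUC2, MUC5AC and ST6GALNAC1, a sialyltransferase of mucins, as higher, and the urea cycle enzyme CPS1 as lower. In the simulated counts, unchanged genes made up 25.6% of DESeq2's calls at 2-fold and 21.7% at 4-fold.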
